A study of Homo sapiens with 6 samples.

Results

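LINC genes are annotated genes for long intergenic noncoding RNAs that carry a systematic name, the letters LINC and a number, in place of a name from function. The 181 LINC genes described here are those with at least 60 raw counts summed over all 6 RNA-seq libraries. They were chosen by that sum alone, so their being counted is not a result. The rule itself does not use the comparison of VPA-treated with untreated cells. The sum does take in the VPA-treated libraries, so genes counted mainly there can pass. The choice was also made with earlier results of these data known. The files list 2216 LINC genes among 47470 genes. Of these LINC genes 877 had at least 1 count and 1339 were at 0 in all 6 libraries, among them all 38 that RefSeq places on chromosomes X or Y, where no gene of any kind had a count. RNA came from HEK293T cells, an established line of human embryonic kidney origin that makes the large T antigen of SV40, labelled wild type in every library. One group of 3 libraries was from untreated cells and the other group of 3 from cells kept in 1 mM valproic acid (VPA) for 1 day. VPA is a short-chain fatty acid that inhibits class I histone deacetylases. In each group the libraries carry replicate numbers, and nothing in the sources used here says that they came from separate cultures, so the p-values below measure the spread between these samples, which may be technical.

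Long noncoding RNAs are transcribed by RNA polymerase II, and most are spliced and polyadenylated like messenger RNAs, but they hold no long open reading frame. Many are made at low levels and in few cell types, and a LINC gene is usually named for its place between protein-coding genes before anything is known of its role. Some are hosts of microRNAs, some start head-to-head with a protein-coding gene from one promoter region, and for some the act of transcription and not the RNA may be what matters in the cell. The name does not guarantee an intergenic place, since neighbouring genes are often annotated later over the same bases.

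The libraries held between 18622267 and 18828495 counts on genes, so depth differed little between them. The values are raw reads per gene, and 15298 genes that passed a filter on low counts were tested with edgeR's quasi-likelihood test with Benjamini-Hochberg adjustment over all of them. A gene is called higher or lower at an adjusted p under 0.05, and up-regulated or down-regulated when its log2 fold change is also at least 1 in size. Normalized counts are counts divided by TMM-scaled library size and set to the mean library. Marker genes of the line such as PAX2, KRT18 and VIM were counted in every library. Of 13 markers of blood, liver, fibroblasts, astrocytes and endothelium all had at least 1 count, but PTPRC, CD3E, HBA1, HBB and CDH5 were at 0 in every untreated library. The summed normalized count of these 13 genes lay between 459 and 492 in untreated and between 1421 and 1575 in VPA-treated libraries, mostly COL1A1, and 4 of the 5 that were tested (COL1A1, DCN, GFAP and AQP4) were up-regulated. Their part in the results was not tested, and in bulk RNA a change in which cells are present cannot be told apart from a change in RNA per cell.

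For 123 of the 181 genes RefSeq (GRCh38.p14) gave a promoter window of 250 bases before to 50 bases after the start. The windows of 6 genes that the results below turn on are shown here. They belong to the up-regulated genes with the strongest test among those with a window (LINC01234 and LINC00173), the gene with the largest log2 fold change (LINC01918), a pair of up-regulated neighbours (LINC01232 and LINC00449), and a gene called lower that starts beside a protein-coding gene (LINC02166). They are written 5′ to 3′ on the strand of the gene, at chr12:113773634-113773933 (minus strand), chr12:116533172-116533471 (plus), chr2:105143863-105144162 (plus), chr13:99499257-99499556 (minus), chr13:99501014-99501313 (minus) and chr16:89686863-89687162 (minus). Capitals mark matches on either strand to 3 motifs of general promoters, the GC box GGGCGG, the CCAAT box CCAAT and the TATA box TATAAA, and matches may overlap.
LINC01234: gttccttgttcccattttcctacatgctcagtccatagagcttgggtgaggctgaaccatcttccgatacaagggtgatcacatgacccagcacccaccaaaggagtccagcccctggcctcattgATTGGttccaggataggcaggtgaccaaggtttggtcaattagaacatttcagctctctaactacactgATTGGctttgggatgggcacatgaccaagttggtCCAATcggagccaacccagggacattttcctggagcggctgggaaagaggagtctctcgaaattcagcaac
LINC00173: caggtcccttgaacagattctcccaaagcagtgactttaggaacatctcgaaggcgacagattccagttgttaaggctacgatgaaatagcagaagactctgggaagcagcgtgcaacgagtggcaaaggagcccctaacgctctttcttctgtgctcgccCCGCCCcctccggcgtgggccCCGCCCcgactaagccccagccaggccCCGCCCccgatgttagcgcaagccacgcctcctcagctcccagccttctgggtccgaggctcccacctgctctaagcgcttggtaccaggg
LINC01918: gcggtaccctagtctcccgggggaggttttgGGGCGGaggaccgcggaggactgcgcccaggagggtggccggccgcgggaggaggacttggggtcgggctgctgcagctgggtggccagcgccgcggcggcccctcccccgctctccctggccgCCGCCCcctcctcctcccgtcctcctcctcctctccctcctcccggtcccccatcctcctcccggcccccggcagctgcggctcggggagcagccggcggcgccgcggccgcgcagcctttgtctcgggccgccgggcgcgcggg
LINC01232: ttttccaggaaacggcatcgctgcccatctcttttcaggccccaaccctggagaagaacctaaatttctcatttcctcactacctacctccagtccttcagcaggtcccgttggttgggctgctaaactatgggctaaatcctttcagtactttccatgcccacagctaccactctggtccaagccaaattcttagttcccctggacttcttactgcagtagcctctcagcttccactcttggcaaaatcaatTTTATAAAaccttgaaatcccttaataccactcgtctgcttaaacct
LINC00449: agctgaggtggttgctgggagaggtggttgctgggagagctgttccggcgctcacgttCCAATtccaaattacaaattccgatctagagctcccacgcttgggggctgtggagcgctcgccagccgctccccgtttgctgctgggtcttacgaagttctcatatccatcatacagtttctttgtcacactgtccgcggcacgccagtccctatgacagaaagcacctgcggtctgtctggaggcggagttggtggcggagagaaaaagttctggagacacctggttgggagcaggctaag
LINC02166: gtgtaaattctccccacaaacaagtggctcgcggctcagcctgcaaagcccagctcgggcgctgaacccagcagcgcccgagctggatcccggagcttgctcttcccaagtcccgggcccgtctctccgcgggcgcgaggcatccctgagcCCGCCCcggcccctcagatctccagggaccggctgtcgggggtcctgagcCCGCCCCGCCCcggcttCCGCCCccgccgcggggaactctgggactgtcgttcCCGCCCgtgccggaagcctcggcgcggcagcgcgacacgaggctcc
The window of LINC01234 held 3 CCAAT boxes, that of LINC00173 held 3 GC boxes and that of LINC02166 held 5 GC boxes. In the window of LINC01232 overlapping bases read as a TATA box on either strand. Over all 155 windows of these LINC genes (some have several starts) the GC box was in 50.3%, against 44.95% of all 35116 RefSeq windows of this length. The CCAAT box was in 42.6% against 34.6%, and the TATA box in 14.2% against 11.5%. Of the 19 windows of up-regulated LINC genes 42.1% held a GC box, 21.05% a CCAAT box and 15.8% a TATA box. The cAMP response element TGACGTCA was in 4.52% of the LINC windows and 1.85% of all windows, and TCAGCACC, a stretch of the element read by the repressor REST, in 0.645% and 1.67%. Neither was in a window of an up-regulated LINC gene. These are descriptions of letters in a window, and no test was made of them.

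The LINC genes took few of the reads. Together they held 116673 counts, 0.104% of all counts on genes, and 39.4% of these fell on the 6 genes with the most counts. The sum per gene ran from 60 to 14256 with a median of 231. All 181 passed the filter and were tested, at a median standard error of 0.196 on the log2 scale against 0.0704 over all tested genes, so that a difference of a given size was harder to call among them. Summed over all 181, the normalized count was 18978, 18459 and 18375 without VPA and 20252, 20245 and 20156 with it. Every VPA-treated sum lay above every untreated one.

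More LINC genes were higher than lower in VPA-treated cells. Of the 181, 63 (34.8%) were called higher, beside 32.9% of all tested genes, and 11 (6.08%) were called lower, beside 30% of all tested genes. The share called higher was near that of all genes and the share called lower was below it. At the fold change threshold 20 LINC genes (11.05%) were up-regulated, where the share over all tested genes was 12.0%, and 1 (0.553%) was down-regulated, where it was 0.503%. The other 43 higher and 10 lower genes changed by less than the threshold, and 107 were not called. The median log2 fold change was 0.21 over the LINC genes and 0.0058 over all tested genes, with 127 LINC genes above 0 and 54 below. In 71 LINC genes every VPA-treated library lay above every untreated one, which held for 34.8% of all tested genes, and in 16 every one lay below, which held for 31.0%. The plot of log2 fold change against count places the up-regulated genes mostly at low counts.

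**Figure D1:**
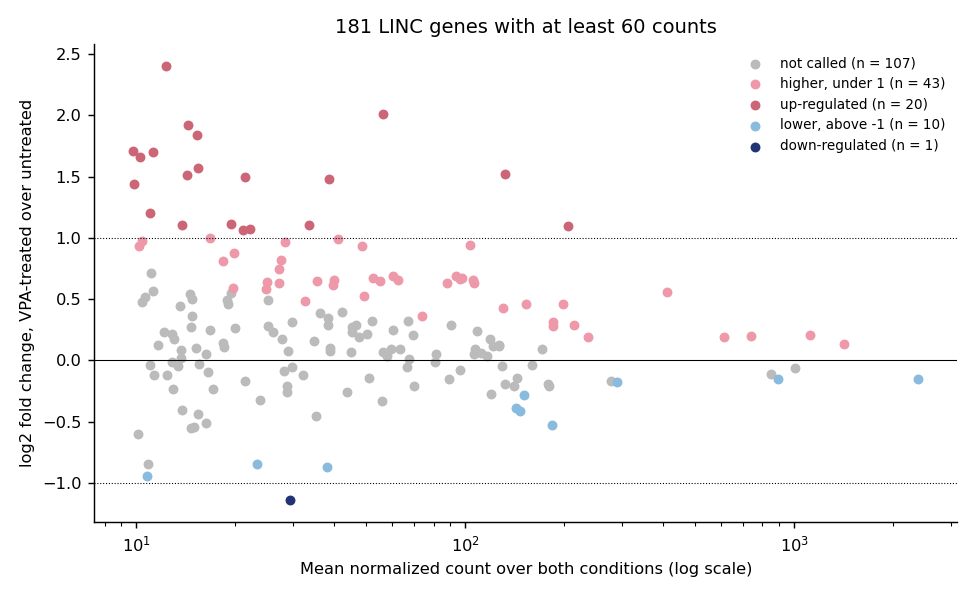
Log2 fold change (VPA-treated over untreated) of each of the 181 LINC genes against its mean normalized count over both conditions, on a log axis, coloured by call, with dotted lines at 1 and -1. The 20 up-regulated genes lie mostly at the left, at low counts, and the genes at the right, with the most counts, lie near 0.

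The share of LINC genes that were up-regulated was highest in the class of fewest counts. It was 12 of 57 (21.05%) at 60 to 119 counts, 5 of 50 (10%) at 120 to 299, 1 of 29 (3.45%) at 300 to 599 and 2 of 45 (4.44%) at 600 or more. Over all tested genes in the same count classes it was 26.2%, 27.9%, 28.2% and 5.52%, and over protein-coding genes 45.6%, 43.3%, 38.4% and 5.64%. In each class the LINC share was thus the lowest of the 3, a difference that was not tested, and at 600 or more the 3 shares were close. All tested genes include the protein-coding ones. Other noncoding genes were not split into these classes, so the lower share cannot be called particular to LINC genes. The share called lower was 1.75%, 6%, 0% and 15.6% in the LINC genes, beside 6.15%, 7.20%, 8.91% and 38.8% over all tested genes. A gene near the minimum that is high in one condition has few counts in the other, and 17 LINC genes had under 30 raw counts in the untreated libraries together. Of these 11 were up-regulated, a count that the choice by sum helps to make. Among the 161 LINC genes with at least 30 counts in each condition 50 were higher, 10 lower, 9 up-regulated and 1 down-regulated, and their median log2 fold change was 0.17.

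**Figure D2:**
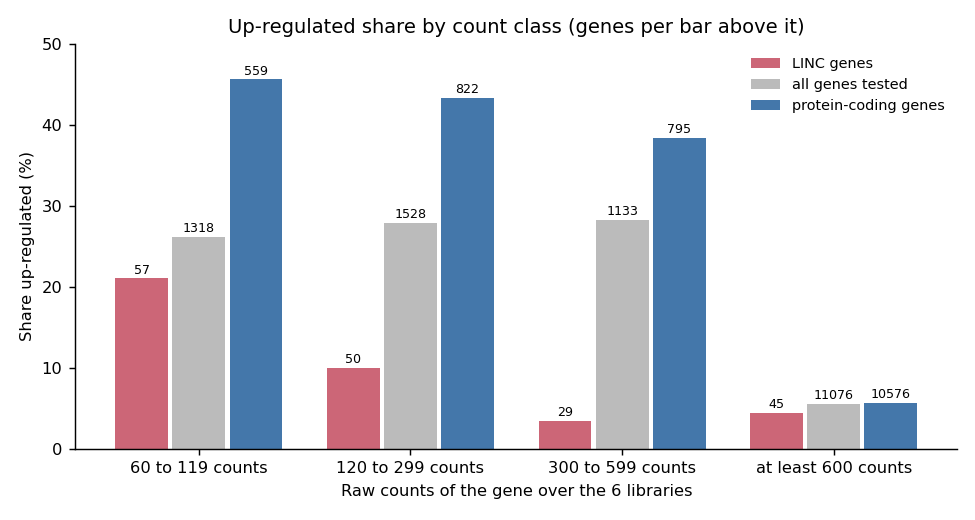
Share of genes that were up-regulated (%) in classes of the raw count summed over the 6 libraries, for LINC genes, all tested genes and protein-coding genes, with the number of genes above each bar. The LINC bar is the lowest in each class, at 21.05% in the class of 60 to 119 counts and 4.44% in that of at least 600. All tested genes include the protein-coding ones, and other noncoding genes are not shown apart.

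Other groups of genes were set beside the LINC genes at the same minimum of 60 counts. Among 434 tested antisense genes (symbols that end in AS, with or without a number) 113 were higher, 64 lower, 37 (8.53%) up-regulated and 16 (3.69%) down-regulated, and the median log2 fold change was 0.055. Among 1061 other genes that RefSeq classes as long noncoding, 263 were higher, 125 lower, 96 (9.05%) up-regulated and 15 down-regulated, at a median of 0.14. Protein-coding genes at this minimum numbered 12752, of which 4325 were higher and 4260 lower, with a median of -0.0092. The LINC genes had the highest median of these 4 groups and the lowest share called lower, and the differences between groups were not tested. The groups also differed in counts, with a median sum per gene of 231 for LINC genes and 3770 for protein-coding genes. From 60 to 119 counts the median log2 fold change was 0.27 for LINC and 0.84 for protein-coding genes. It was 0.29 and 0.78 from 120 to 299, 0.21 and 0.68 from 300 to 599, and 0.095 and -0.054 from 600. The share called lower was 1.75% for LINC and 3.04% for protein-coding genes from 60 to 119 counts, and 6% and 5.72% from 120 to 299. It was 0% and 6.54% from 300 to 599, and 15.6% and 39.2% from 600.

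Of the up-regulated genes, the strongest test belonged to LINC01694, a spliced gene at chr21:45593654-45603056 on the plus strand. Its normalized count was 80.8, 56.5 and 67.2 without VPA and 183, 198 and 206 with it. Each VPA-treated value was above every untreated one by a wide margin, at a log2 fold change of 1.52 ± 0.12 (SE, n = 3 per group) and an adjusted p of 5.95e-10. LINC01234, a minus-strand gene at chr12:113744577-113773683 whose RNA has been studied mainly in tumours, had 141, 117 and 133 normalized counts without VPA and 271, 284 and 282 in VPA-treated libraries. The groups were again far apart, with a log2 fold change of 1.10 ± 0.092 and an adjusted p of 1.12e-09. LINC00173, at chr12:116533422-116536513 on the plus strand, had 21.7, 24.1 and 21.0 normalized counts without VPA and 104, 83.8 and 82.3 in VPA-treated cells. This was the largest change among LINC genes with at least 300 counts, at 2.01 ± 0.18 and an adjusted p of 2.47e-09.

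A pair of up-regulated LINC genes stood next to each other. LINC01232 (chr13:99486962-99499306, minus strand) had 21.7, 19.9 and 18.9 normalized counts without VPA and 53.7, 62.6 and 53.6 in VPA-treated libraries, and its log2 fold change was 1.48 ± 0.19 with an adjusted p of 7.68e-07. LINC00449 (chr13:99499723-99501063, same strand) ends 0.417 kb from where LINC01232 starts and had 12.4, 15.7 and 12.6 in untreated and 28.75, 30.8 and 25.9 in VPA-treated libraries, a log2 fold change of 1.06 ± 0.25 with an adjusted p of 7.69e-04. Both start head-to-head with TM9SF2, a gene for a membrane protein of the endosome and Golgi, whose start lies 0.409 kb from that of LINC00449. TM9SF2 itself had a log2 fold change of -0.029 ± 0.041 and was not called (adjusted p = 0.55). Whether reads of both LINC genes stem from a single longer RNA cannot be read from counts per gene.

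Apart from that of LINC00173, the largest log2 fold changes were on genes with few counts. LINC01918 (chr2:105144113-105145424, plus strand) had 1.04, 4.19 and 6.30 normalized counts without VPA and 18.2, 18.3 and 25.9 in VPA-treated libraries, at 2.40 ± 0.41 and an adjusted p of 2.73e-05. LINC02575 on chromosome 21 had 4.14, 7.33 and 6.30 and then 23.96, 24.1 and 20.1, at 1.92 ± 0.32 (adjusted p = 2.43e-05). LINC02772 on chromosome 1 had 6.21, 7.33 and 6.30 and then 20.1, 24.1 and 27.8, at 1.84 ± 0.31 (adjusted p = 2.46e-05). In all 3 the lowest VPA-treated library was above the highest untreated one. Each rests on fewer than 10 normalized counts per untreated library, though, and the standard errors are correspondingly wide. Most counts of each were in VPA-treated libraries. The choice by sum favours such genes, so the separation is not separate support.

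LINC02982 on chromosome 5 had 12.4, 11.5 and 9.45 normalized counts without VPA and 24.9, 39.5 and 30.6 in VPA-treated cells, a log2 fold change of 1.498 ± 0.27 (adjusted p = 5.80e-05). LINC01569 on chromosome 16 lies just past the end of TFAP4, a gene for a helix-loop-helix transcription factor, on the same strand, and had 31.1, 14.7 and 17.8 and then 42.2, 49.1 and 46.0, at 1.10 ± 0.23 (adjusted p = 2.54e-04). Its first untreated library was nearer to the lowest VPA-treated one than to the other untreated libraries. LINC00574 on chromosome 6, which shares bases with LINC00242 on the other strand, had 5.18, 7.33 and 3.15 and then 14.4, 20.2 and 17.2, at 1.70 ± 0.37 (adjusted p = 3.90e-04). LINC02268 on chromosome 4, at the minimum of 60 counts, was also among the 5 largest log2 fold changes (1.71 ± 0.40, adjusted p = 8.72e-04). Most counts of LINC00574 and LINC02268, too, were in VPA-treated libraries, which the choice by sum favours.

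The groups did not overlap in any of the 20 up-regulated LINC genes, as the plot by library shows. The call itself favours such genes, so this is not separate evidence. Over all tested genes, called or not, the VPA-treated libraries lay wholly above in 34.8%. The genes not yet described are LINC02615, LINC00941, LINC01801, LINC02981, LINC02724, LINC02086, LINC01297 and LINC00870, whose log2 fold changes lay between 1.07 and 1.66. LINC01297 lies in a region of chromosome 14 with near-identical copies elsewhere and inside the read-through gene LINC01297-DUXAP10-NBEAP6 on the same strand, so its counts are uncertain. LINC00870 was the one gene of the 181 with 0 counts in any library, the first untreated one. Its values were 0, 8.37 and 7.35 in untreated and 10.5, 17.3 and 15.3 in VPA-treated libraries, and without that untreated library its log2 fold change was 0.86 and not called (adjusted p = 0.072). With each library left out in turn, 19 of the 20 kept an adjusted p under 0.05 each time, and 15 of the 20 kept both thresholds each time.

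**Figure D3:**
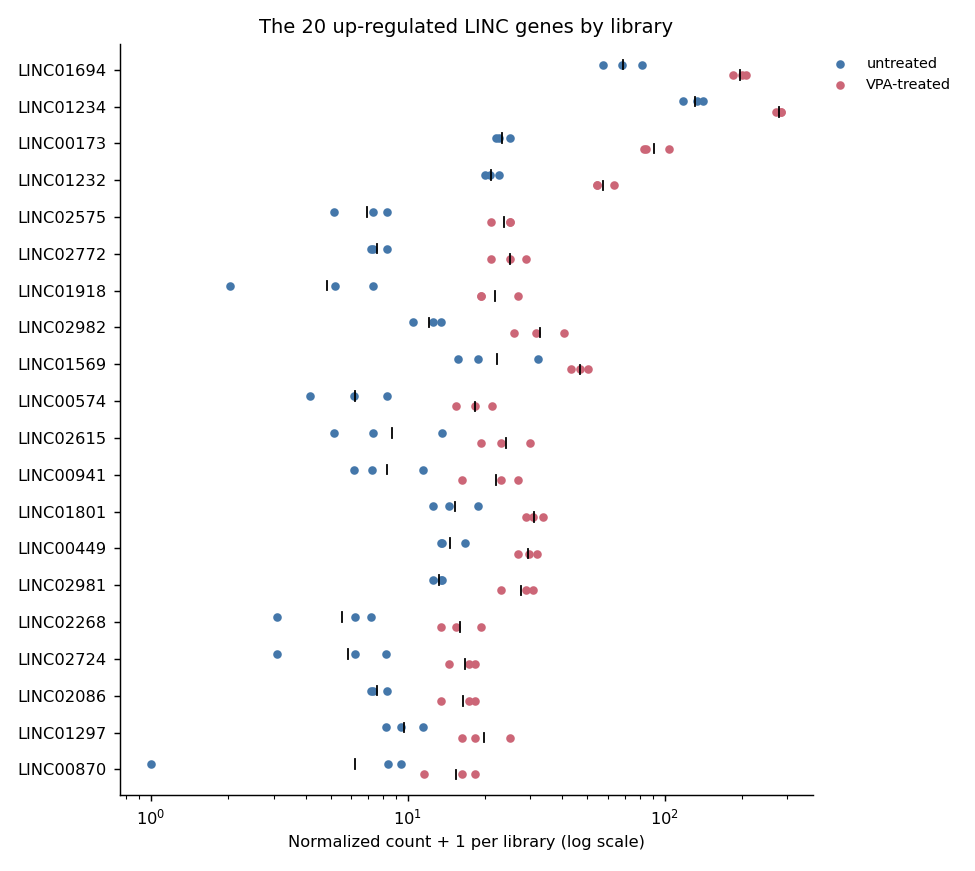
Normalized count plus 1 in each library (log axis) for the 20 up-regulated LINC genes, ordered by p, with untreated libraries in blue, VPA-treated in red and a black bar at the mean of each group. In every row the red points lie to the right of the blue ones, and in LINC00870 the first untreated library is at 0.

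The 43 genes that were higher by less than the threshold included some of the best counted. LINC00294, which lies just past TCP11L1 on the same strand of chromosome 11, had 330, 367 and 299.2 normalized counts without VPA and 484, 477 and 506 in VPA-treated libraries, at 0.56 ± 0.074 with an adjusted p of 1.08e-06. LINC00648 on chromosome 14 had 79.7, 56.5 and 75.6 and then 121, 152 and 134, at 0.94 ± 0.14 with an adjusted p of 3.82e-06. LINC01399 on chromosome 22 came close to the threshold at 0.99 ± 0.19 (adjusted p = 1.42e-04), with 32.1, 28.3 and 22.04 and then 47.9, 52.02 and 64.1. These 3 were chosen after their values were seen. In 57 of all 63 genes called higher the VPA-treated libraries lay wholly above the untreated ones, which the call itself favours. Over all tested genes, called or not, this held for 34.8%.

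LINC03027 was the one down-regulated gene of the 181. It lies at chr10:22435425-22437929, and its strand was in none of the tables used. Its normalized count was 44.5, 46.1 and 30.4 without VPA and 12.5, 23.1 and 19.1 with it, a log2 fold change of -1.14 ± 0.24 with an adjusted p of 3.29e-04. The groups did not overlap, but without the first VPA-treated library its log2 fold change was -0.93 and none of the 181 was down-regulated.

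Among the 10 that were lower by less than the threshold, LINC01816 (-0.94 ± 0.36), LINC02166 (-0.87 ± 0.20), LINC01619 (-0.84 ± 0.27) and LINC02593 (-0.53 ± 0.11) had the largest log2 fold changes. LINC02166 had 59.01, 48.2 and 39.9 normalized counts without VPA and 25.9, 30.8 and 23.9 in VPA-treated libraries, with an adjusted p of 7.27e-04. It starts 0.223 kb from CDK10, a cyclin-dependent kinase gene on the other strand whose bases it shares. CDK10 was lower by far less (-0.14 ± 0.054, adjusted p = 0.028). LINC02593 had 228, 202 and 222 in untreated and 176, 123 and 151 in VPA-treated libraries and the smallest p of the 11, with an adjusted p of 2.52e-04. LINC01311, LINC00680 and LINC01089 were lower by 0.41, 0.39 and 0.28 on the log2 scale, and LINC01128, LINC00641 and LINC02693 by 0.18 or less. With a library left out in turn, LINC01128 was called in 1 of the 6 fits, LINC01816 in 2 and LINC01089 in 3. In 8 of the 11 the groups did not overlap, which the call itself favours, and in 3, LINC01619, LINC00641 and LINC01089, they did. Over all tested genes, called or not, the VPA-treated libraries lay wholly below in 31.0%. The genes of this paragraph outside LINC02693, LINC00641 and LINC01089 were chosen after their values were seen.

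**Figure D4:**
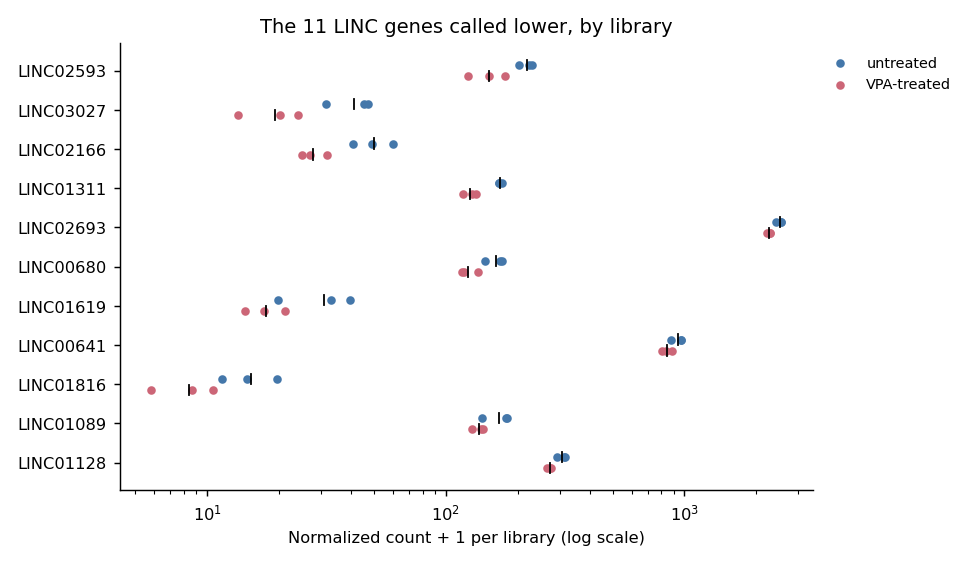
Normalized count plus 1 in each library (log axis) for the 11 LINC genes called lower, ordered by p, with untreated libraries in blue, VPA-treated in red and a black bar at the mean of each group. LINC03027 shows the widest gap between the means, and the points overlap in LINC01619, LINC00641 and LINC01089.

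The 6 LINC genes with the most counts changed little. LINC02693 on chromosome 17, with 14256 counts over the 6 libraries, had 2547, 2422 and 2546 normalized counts without VPA and 2284, 2215 and 2274 in VPA-treated libraries, a log2 fold change of -0.15 ± 0.042 (adjusted p = 0.00352). This call ended with upper quartile scaling (-0.085, adjusted p = 0.088) and with library totals (-0.019, adjusted p = 0.72). LINC00674 had 1358, 1418 and 1278 and then 1436, 1496 and 1515, at 0.13 ± 0.049 (adjusted p = 0.0214), a call that was lost with DESeq2 (adjusted p = 0.15), without the filter on low counts (0.065) and in 3 of the 6 fits with a library left out. LINC00205, which starts head-to-head with the O-fucosyltransferase gene POFUT2 on chromosome 21, had 1001, 1079 and 1024 and then 1232, 1174 and 1170, at 0.20 ± 0.050 (adjusted p = 0.00116). POFUT2 was not called (0.029 ± 0.053, adjusted p = 0.66).

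LINC00641 had 962, 966 and 881 and then 807, 837 and 886, at -0.15 ± 0.056 (adjusted p = 0.0223), and here the third VPA-treated library overlapped the third untreated one. Its call ended with upper quartile scaling (-0.086, adjusted p = 0.20), with library totals (-0.020, adjusted p = 0.78) and in 4 of the 6 fits with a library left out. LINC01000 had 1148, 994 and 940 and then 1006, 981 and 973, with no call at -0.059 ± 0.061. LINC01605 had 848, 891 and 909 in untreated and 818, 823 and 812 in VPA-treated libraries. Its groups did not overlap, but at -0.11 ± 0.052 it was not called (adjusted p = 0.069). Among the LINC genes with at least 600 counts the smallest log2 fold changes in size were on LINC01963 (-0.034 ± 0.094), LINC02815 (0.035 ± 0.11), LINC00623 (-0.043 ± 0.11) and LINC01138 (0.050 ± 0.11). In all 4 the libraries overlapped, and the signs of LINC01963 and LINC00623 turned with upper quartile or library-total scaling, as did that of LINC01000, and that of LINC01605 with library totals.

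The genes at the edge of the rule are given as a description. Just inside, with 60 counts each, were LINC00870, LINC02268 and LINC02928, the last with 17.6, 7.33 and 11.5 normalized counts without VPA and 4.79, 11.6 and 7.66 in VPA-treated libraries. Just outside were LINC00624 and LINC01852 with 59 counts and LINC01410 with 58. LINC00624 had 3.11, 4.19 and 8.40 normalized counts and then 14.4, 7.71 and 20.1, LINC01852 had 16.6, 13.6 and 8.40 and then 7.67, 3.85 and 9.57, and LINC01410 had 13.5, 13.6 and 12.6 and then 5.75, 5.78 and 7.66. Of the tested ones just outside, LINC01410 was down-regulated (-1.03 ± 0.35, adjusted p = 0.0141) and LINC01852 was not called (-0.86 ± 0.39, adjusted p = 0.060). Below the minimum 696 LINC genes had 1 to 59 counts. Of these 507 had more raw counts in the VPA-treated libraries, 111 had fewer and 78 had as many, with 2611 raw counts over the untreated and 4677 over the VPA-treated libraries. The untreated libraries had counts on 484, 490 and 495 LINC genes each, and the VPA-treated ones on 610, 604 and 651. Neither comparison was made over all genes with so few counts, so they are not read as particular to LINC genes. Over all tested genes with 60 to 119 counts, 881 of 1318 had a log2 fold change above 0. Of the LINC genes in that class 40 of 57 did.

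A list of 26 LINC genes taken for what is known of them held 23 that the files list and 14 of the 181. Of these 14, 5 (35.7%) were called higher, beside 32.9% of all tested genes, 2 lower (LINC01089 and LINC00641) and 1 up-regulated (LINC00173), and the median log2 fold change was 0.27. LINC00667 had 44.5, 55.5 and 37.8 normalized counts and then 69.0, 82.8 and 70.8, at 0.69 ± 0.16 (adjusted p = 8.35e-04). LINC01116, which lies by the HOXD cluster, was higher at 0.74 ± 0.27 (adjusted p = 0.0191) although its untreated libraries, at 16.6, 12.6 and 31.5, overlapped the VPA-treated ones at 36.4, 37.6 and 27.8. That call was lost with DESeq2 (adjusted p = 0.11) and in 4 of the 6 fits with a library left out, where the log2 fold change ran from 0.49 without untreated replicate 2 to 1.20452 without untreated replicate 3. LINC00472 (0.36 ± 0.13) and LINC00839 (0.31 ± 0.095) were higher with no overlap between groups, but neither was called with DESeq2 (adjusted p = 0.20 and 0.081), and LINC00472 was called in 3 of the 6 fits with a library left out. LINC00662, LINC00665, LINC00467, LINC00339, LINC00958 and LINC00963 were not called, with log2 fold changes between 0.095 and 0.39. Outside the 181, LINC01405, a transcript known from muscle, had 1 raw count in the untreated and 35 in the VPA-treated libraries, and LINC00473, a target of cAMP signalling, had 1 and 8. LINC00511, LINC00324 and LINC00520 had 7, 22 and 1 counts in all, and LINC00689, LINC00943 and LINC00944 were at 0. LINC00632 lies on chromosome X, where no gene had a count, so its 0 cannot be read.

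LINC00461 lies at chr5:88538266-88691041 on the minus strand. Of the 170 LINC genes with a known strand, it was the only one with an annotated microRNA inside it on the same strand. The 11 without a strand were not searched. LINC00461 is the host of MIR9-2, from which the neural microRNA miR-9 is cut. Its normalized counts were 21.7, 21.98 and 28.3 in untreated and 28.7, 24.1 and 31.6 in VPA-treated libraries, which overlap, at 0.23 ± 0.22 with no call (adjusted p = 0.39). The libraries were made for messenger RNA, and the mature microRNAs were not measured. Both arms are shown with bases 2 to 8, the seed, in capitals, from chr5:88666902-88666924 for the 5p arm and chr5:88666866-88666887 for the 3p arm, as RefSeq gives them.
hsa-miR-9-5p: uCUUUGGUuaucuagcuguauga
hsa-miR-9-3p: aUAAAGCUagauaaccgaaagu

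Better known long noncoding RNA genes outside the LINC names, on a list of 49, changed in both directions. The files list 48 of them, 6 at 0 in all libraries, and 32 were tested. Among all tested genes 32.9% were higher, 30% lower and 12.0% up-regulated. Of the 32 on this list 8 (25.0%) were higher, 10 (31.25%) lower, 2 (6.25%) up-regulated and 0 down-regulated by edgeR. The difference from all tested genes was not tested, so these calls are not read as particular to the list. The 2 up-regulated genes of the list were MIAT, a nuclear RNA first described for its link to myocardial infarction, at 26.1 ± 4.35 (SD, n = 3) and 172 ± 7.66 normalized counts (log2 fold change 2.72 ± 0.14, adjusted p = 5.67e-13), and the miR-124 host MIR124-1HG, with 2 raw counts in the untreated and 51 in the VPA-treated libraries. NEAT1, the scaffold of paraspeckles, was higher by 0.82 ± 0.17 and MALAT1, an RNA of nuclear speckles, by 0.17 ± 0.064. GAS5 (-0.48 ± 0.048), NORAD (-0.23 ± 0.038), HOTAIR (-0.64 ± 0.096), CRNDE (-0.67 ± 0.098) and CHASERR (-0.54 ± 0.074) were lower. TUG1 had a log2 fold change of 0.0056 ± 0.039 and was not called (adjusted p = 0.91).

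By position, RefSeq and GENCODE together gave a strand for 170 of the 181 genes. They lay on 22 chromosomes, and the 20 up-regulated ones on 15. Over all tested genes 32.9% were higher, 30% lower and 12.0% up-regulated, and over the 181 LINC genes 34.8%, 6.08% and 11.05%. Of the placed genes 78 lay within 50 kb of a protein-coding gene without touching it. Of these 29 (37.2%) were higher, 2 (2.56%) lower and 13 (16.7%) up-regulated. A further 55 lay more than 50 kb away, with 21 (38.2%) higher, 2 (3.64%) lower and 4 (7.27%) up-regulated. Starts head-to-head with a protein-coding gene, within 5 kb of its start, numbered 17. Of these 6 (35.3%) were higher, 2 (11.8%) lower and 2 (11.8%) up-regulated (LINC01232 and LINC00449). There were 10 just downstream of a protein-coding gene on the same strand, with 4 higher and 1 lower, and 10 that overlapped one on either strand, of which 2 were higher (LINC01530 and LINC02210) and 2 lower (LINC01619 over BTG1 and LINC01089 against SETD1B). Of the 11 without a strand, 1 was higher and 2 were lower. The shares called higher in the 3 largest classes were near that of all tested genes. The counts per class are small, the classes differ in counts per gene, and no test was made between classes. On the other strand 58 of the 181 genes share bases with another gene of any kind, and 21 do so on the same strand. How strand was used in the counting is not given in the sources used here, so reads of such pairs may not be told apart. Of the 20 up-regulated genes 4 share bases on the other strand (LINC00574, LINC02981, LINC02086 and LINC01297).

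Structure at the start was also compared. In GENCODE 159 of the genes had exons, with a median of 4 in the longest transcript. Of 42 genes with 1 or 2 exons 4 (9.52%) were up-regulated, of 47 with 3 or 4 exons 10 (21.3%) were, and of 70 with 5 or more exons 6 (8.57%) were. The share was 11.05% over the 181 LINC genes and 12.0% over all tested genes, and no test was made between exon classes. The ratio of observed to expected CpG in the 300 bases around the start was under 0.6 in 89 genes, of which 12 (13.5%) were up-regulated, and at least 0.6 in 70, of which 8 (11.4%) were. Over all tested genes the shares were 19% and 9.56%. The LINC genes with CpG-poor and CpG-rich starts thus differed less in this share than all genes did, a difference that was not tested.

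The nearest protein-coding gene, by distance between starts, was tested for 126 of the 170 placed LINC genes, 118 different genes in all. Of the 126 neighbours 37 were higher, 47 lower and 9 up-regulated, where the shares over all tested genes are 32.9%, 30% and 12.0%, and 1 was down-regulated. In percent 29.4% were higher and 7.14% up-regulated. Of the pairs 69 had a log2 fold change of the same sign as the LINC gene. Across these 126 pairs Pearson's r was 0.060 and Spearman's rho 0.18, as a description, since the pairs share their libraries and some neighbours. Where both were called, in 40 pairs, 25 changed in the same direction. Within 5 kb, where 18 neighbours were tested, 2 were higher and 10 lower, and the difference from the other distances was not tested.

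Of the close pairs with both called, 3 moved together, and all 3 were lower. LINC02593 starts 4.23 kb from SAMD11, a gene for a sterile alpha motif protein, and SAMD11 had 1310 ± 141 (SD, n = 3) normalized counts without VPA and 823 ± 81.1 in VPA-treated cells (-0.67 ± 0.079, adjusted p = 3.53e-06). The others were LINC02166 with CDK10, and LINC01619 with the antiproliferative gene BTG1 (-0.27 ± 0.058), which it overlaps on the same strand. In the remaining close pairs the directions differed. LINC01521 starts 0.413 kb from PATZ1, a zinc finger transcription factor gene, and was higher at 0.19 ± 0.082 (adjusted p = 0.04995, called in 1 of the 6 fits with a library left out) while PATZ1 was lower, at 2099 ± 81.4 and 1416 ± 41.4 normalized counts (-0.57 ± 0.046, adjusted p = 5.99e-10). LINC01547 starts 0.216 kb from the ribosome-assembly gene SLX9 and was higher at 0.46 ± 0.10 (adjusted p = 5.24e-04) while SLX9 was lower, at 1082 ± 60.1 and 832 ± 33.9 (-0.38 ± 0.055, adjusted p = 3.52e-06). These pairs were chosen after their values were seen.

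The neighbours of the up-regulated LINC genes went both ways. Of 17 that were tested 5 were higher and 6 lower, and 1 was up-regulated, SRL, the sarcalumenin gene, which lies 11.7 kb from the start of LINC01569 (6.26 ± 1.06 and 14.1 ± 0.573 normalized counts, 1.15 ± 0.35, adjusted p = 0.00666). NKD2, a gene for an antagonist of Wnt signalling, lies 11.5 kb from LINC02982 and was higher, at 276 ± 16.8 and 547 ± 21.6 normalized counts (0.99 ± 0.070, adjusted p = 7.19e-11). LRRC3, beside LINC02575, was higher by 0.46 ± 0.061. SLC19A1, the folate carrier gene beside LINC01694, was lower at 2144 ± 160 and 1659 ± 81.8 (-0.37 ± 0.053, adjusted p = 3.08e-06), and RBM19, the nearest gene to LINC01234 at 193 kb, was lower by 0.13 ± 0.044. MAP1LC3B2, beside LINC00173, and GPR45, nearest to LINC01918, had too few counts to be tested.

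HOXB9, a homeobox gene 16.3 kb from the start of LINC02086, was lower at 4348 ± 92.6 and 2202 ± 69.6 normalized counts (-0.98 ± 0.041, adjusted p = 1.21e-14), while LINC02086 was up-regulated from 6.21, 7.33 and 6.30 to 12.5, 16.4 and 17.2 (1.2003 ± 0.34, adjusted p = 0.00437). GAS1, a growth-arrest gene 94.6 kb from LINC02893, was the down-regulated neighbour, at 1037 ± 136 and 485 ± 38.4 normalized counts (-1.10 ± 0.085, adjusted p = 2.33e-08), while LINC02893 was higher by 0.67 ± 0.13. At the other end SYT13, a synaptotagmin gene 69.0 kb from LINC02696, was up-regulated by 2.72 ± 0.18, while LINC02696 had 14.5, 24.1 and 18.9 and then 13.4, 14.4 and 12.4 normalized counts and was not called (-0.51 ± 0.28, adjusted p = 0.12). These pairs, too, were chosen after their values were seen.

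**Figure D5:**
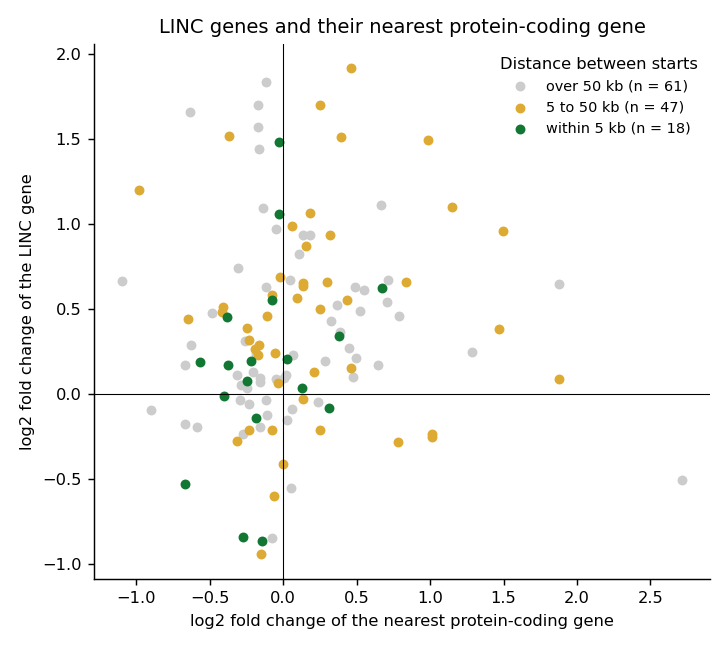
Log2 fold change (VPA-treated over untreated) of 126 LINC genes on the vertical axis against that of their nearest tested protein-coding gene on the horizontal axis, coloured by distance between starts, with lines at 0. The points fill every quadrant, and 69 pairs have the same sign.

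LINC genes also lay near each other. There were 12 pairs within 100 kb, made of 18 genes, and in 3 pairs both were called in the same direction. Beside LINC01232 with LINC00449 these were LINC01801 (1.07 ± 0.25) with LINC03049 (0.93 ± 0.22) on chromosome 19, 16.2 kb apart and both higher, and LINC02593 with LINC01128 on chromosome 1, 57.4 kb apart and both lower, although LINC01128 was called in 1 of the 6 fits with a library left out. LINC00115, which lies 0.069 kb from LINC01128, was not called (adjusted p = 0.51). LINC00242, which shares bases with the up-regulated LINC00574, was not called either (0.50, adjusted p = 0.17).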

How the data were processed

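Strand-specific mRNA libraries of HEK293T cells were compared, 3 untreated and 3 VPA-treated. The deposited values are raw counts per gene, which the authors made by filtering reads in SOAPnuke, mapping to hg38 by STAR (2.7.10b in the submitters' processing notes) and counting by HTSeq (2.0.1 there). Which annotation and strand setting HTSeq was run with is not given in the sources used here. Reads with several places are set aside in such counting, which lowers counts where near-identical copies exist. Left out were the 5 summary lines (reads on no gene, 6.80% to 7.69% beside the counts on genes). Replicates of one group were not the same library, since the chi-square per gene between them was 1.62 to 4.70.

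The test was that of edgeR 4.0.16 under R 4.3.3 (TMM, filterByExpr with count minimum 10, robust quasi-likelihood fit, condition alone as the term, prior count 0.125, Benjamini-Hochberg over 15298 genes), where the study used DESeq2. Standard errors are the log2 fold change over the square root of F. The fit was tested on simulated counts. The alternatives were DESeq2 1.42.0, other scalings and filters, glmTreat, the replicate number as a block, other minimums for the LINC genes, and each library left out. Named LINC genes were the 10 up-regulated of smallest p, the 5 of largest change, the down-regulated, the 6 with most counts, the 4 of least change with at least 600 counts, 3 on each side of the minimum and those of a list of 26, with their neighbours, or are said to be chosen later. The LINC genes and the lists were chosen with earlier results of these data known. Positions are from RefSeq on GRCh38.p14, with 177 genes matched by symbol and 4 by synonym, and strands from RefSeq promoters for 123 and GENCODE 44 for 47. Lengths of the counted models are not known, so levels are not compared between genes. Normalized counts of single genes carry counting error, which is wide under 30 counts.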

Additional observations from a re-analysis of the deposited data

How the results depend on the processing

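The up-regulated count of 20 was 17 with DESeq2, all 17 among the 20, and all 20 were also called with each other scaling. It was 9 of 145 tested when at least 10 counts were asked of every library. With glmTreat, whose null hypothesis is a log2 fold change of up to 1, it was 6 of 181. A minimum of 120 counts for the LINC genes gave 8 of 124, as the 12 up-regulated genes of 60 to 119 counts then leave the set. The 63 higher genes became 37 with DESeq2, all among the 63. The 11 lower genes became 7 with DESeq2, 7 with upper quartile scaling and 6 with library totals. Their number was 14 with scaling by DESeq2 size factors and 12 without the filter on low counts. Down-regulated genes numbered 2 with a minimum of 30 counts and 0 with glmTreat. With single libraries left out the ranges were 53 to 55 higher, 8 to 11 lower, 21 to 24 up-regulated and 0 to 3 down-regulated. The down-regulated count was 0 without VPA-treated replicate 1, 3 without VPA-treated replicate 3 and 2 without each other library.

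Library totals moved the median log2 fold change of all genes from 0.0058 to 0.14 and that of the LINC genes from 0.21 to 0.34, with 80 higher and 6 lower, and upper quartile scaling moved them to 0.071 and 0.28, with 71 higher and 7 lower. Signs turned for LINC00623 (0.022 with upper quartile scaling, 0.088 with library totals, -0.12 to 0.0099 with single libraries left out, the latter without VPA-treated replicate 2), LINC01000 (0.0064, 0.072 and -0.13 to 0.023, the latter without untreated replicate 1), LINC01963 (0.031 and 0.097 with these scalings), LINC01605 (0.022 with library totals) and LINC02815 (-0.014 to 0.095, the former without untreated replicate 3), none of them called. Of 22 called genes among 36 followed, 14 were called under every alternative that gave them a value; asking 10 counts of every library left some of these untested.

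Deviations from the group mean correlated only weakly between same-numbered libraries (r of 0.14, 0.021 and 0.080). Between libraries of unlike number r ran from -0.11 to 0.031. The numbers were not taken to pair the libraries in the fit reported, and whether they do is not known. With the replicate block 64 LINC genes were higher, 16 lower, 21 up-regulated and 1 down-regulated. At this depth LINC genes near 60 counts could be called only for large changes. The cause of these moves was not tested.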
